A study of Mus musculus with 18 samples.

Results

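The 9 regional transcription factors described here, which pattern the embryonic forebrain, were followed in mouse neurosphere cultures: Pax6, Gsx2, Lhx2, Lhx6, Meis1, Meis2, Nkx2-1, Emx2 and Six3. All probe sets that the array's annotation pairs with one of these 9 symbols alone were taken, which gave 21 of the 45101 probe sets on the array. The cultures came from the lateral and medial ganglionic eminences of C57BL/6J embryos at E15.5, grown as neurospheres with EGF and bFGF, dissociated, and plated without EGF in low serum for differentiation. RNA was measured on 18 Affymetrix mouse whole-genome arrays: 2 arrays of cultures treated for 6 h and 4 treated for 24 h with 50 nM trichostatin A (TSA), 2 treated for 6 h and 2 for 24 h with 10 ng/ml recombinant BMP2, and 2 control arrays of 6 h and 6 of 24 h. No transgene or mutation was involved, and the labels do not say whether arrays of a group came from separate cultures or animals, so p-values measure the spread between these arrays, which may be technical.

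The regional identity of telencephalic progenitors rests on a small set of homeodomain factors that restrain each other along the dorsal to ventral axis. Pax6, Emx2 and Lhx2 act in the cortical (pallial) primordium, Gsx2 in the lateral ganglionic eminence, and Nkx2-1 with its target Lhx6 in the medial ganglionic eminence, while Six3 acts in the anterior forebrain and Meis1 and Meis2 are TALE-class homeodomain partners with high expression in the striatal primordium. BMP2 is a secreted ligand that signals through Smad proteins, and TSA inhibits histone deacetylases, the enzymes that remove acetyl groups from histones.

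Promoter sequences are shown for Meis2, Pax6 and Six3, which were among the genes called against control, as was Meis1. RefSeq (GRCm38.p6) gave 13 promoters for the 9 genes, each spanning 250 bases before to 50 bases after an annotated start. TGACAG, a core motif of TALE factors such as Meis1 and Meis2, and GGCGCC, a GC-rich motif of BMP Smads, were searched on both strands; GGCGCC is its own reverse complement, and none of the 13 promoters held both motifs. In the 4 sequences, written on the gene's own strand with matches to either motif in capitals (CTGTCA is TGACAG on the other strand), TGACAG occurred in Six3 at -139 and in the second Pax6 promoter at -159 relative to the start.
Meis2 (chr2:116064570-116064869, minus strand): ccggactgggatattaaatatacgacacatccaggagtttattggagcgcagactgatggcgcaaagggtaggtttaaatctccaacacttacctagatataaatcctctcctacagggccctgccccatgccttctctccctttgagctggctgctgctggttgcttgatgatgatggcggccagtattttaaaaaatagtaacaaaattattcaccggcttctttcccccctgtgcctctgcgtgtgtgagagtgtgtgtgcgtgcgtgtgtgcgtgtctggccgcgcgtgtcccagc
Pax6, first start (chr2:105668646-105668945, plus strand): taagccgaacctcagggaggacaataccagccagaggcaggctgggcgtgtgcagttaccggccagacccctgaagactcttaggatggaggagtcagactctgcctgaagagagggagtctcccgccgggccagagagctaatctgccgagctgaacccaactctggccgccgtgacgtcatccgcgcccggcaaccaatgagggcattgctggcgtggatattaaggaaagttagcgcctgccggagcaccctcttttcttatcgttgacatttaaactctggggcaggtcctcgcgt
Pax6, second start (chr2:105682213-105682512, plus strand): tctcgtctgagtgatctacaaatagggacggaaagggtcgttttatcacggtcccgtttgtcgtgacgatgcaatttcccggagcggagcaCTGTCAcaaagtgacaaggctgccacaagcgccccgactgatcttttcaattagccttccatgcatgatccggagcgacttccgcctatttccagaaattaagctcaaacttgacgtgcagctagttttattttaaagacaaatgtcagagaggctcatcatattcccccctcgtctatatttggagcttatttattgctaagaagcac
Six3 (chr17:85620584-85620883, plus strand): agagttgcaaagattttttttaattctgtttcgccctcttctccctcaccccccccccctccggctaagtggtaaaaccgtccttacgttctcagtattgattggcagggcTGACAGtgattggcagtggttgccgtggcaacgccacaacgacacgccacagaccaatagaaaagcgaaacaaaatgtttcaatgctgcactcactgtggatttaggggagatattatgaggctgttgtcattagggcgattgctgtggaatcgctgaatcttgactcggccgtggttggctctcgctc
Among all 13 promoters, 3 held TGACAG (the third was an Lhx6 start) and 2 held GGCGCC (1 Lhx2 start and Emx2). Of all 32851 mouse promoters of the same length, 19.2% held TGACAG and 11.9% held GGCGCC. The 13 promoters held 11 to 34 CpG dinucleotides each, against a median of 7 and an upper quartile of 20 over all promoters. A match is a description of letters and not of a bound site.

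Signals are linear array intensities after quantile normalization over the 18 arrays, and differences are given on the log2(signal + 32) scale, which understates changes of dim probe sets. The arrays were uniform, with deposited medians of 35.4 to 41.6. They differed in Xist, the RNA that coats the inactive X chromosome in female cells: probe set 1427263_at read 703 to 2086 on both BMP2 arrays and control replicates 5 and 6 of 24 h, against 18.4 to 75.5 on the other 14 arrays. Of the other Xist probe sets, 1436936_s_at showed the same split (2197 to 4467 on those 4 arrays, against 325 to 1875 on the other 14) and 1427262_at did not (23.4 to 97.5, against 66.8 to 375). Values at 24 h are therefore also given with a term for this Xist split and against the controls on the same side of it. The labelled tissue was checked on defining markers: Dlx1, Dlx2 and Gsx1 of the ganglionic eminence reached a group mean of 100, while none of 4 cortical markers (Emx1, Tbr1, Eomes, Neurod6), none of 5 microglial and none of 3 erythroid markers did. That mean was also reached by 1 of 4 endothelial markers (Kdr) and by 2 of 5 mural and fibroblast markers (Pdgfrb and Col1a2). The check covers these markers only. Emx2, Lhx2 and Pax6, which act in the cortical primordium, had group means from 236, 779 and 103 upward (1456258_at, 1418317_at and 1419271_at).

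Of the 21 probe sets, 11 of 7 genes had a group mean of at least 100 and entered the test, as did 19439 probe sets of the whole array. Those of the medial ganglionic eminence factors did not. Nkx2-1 (1422346_at), which specifies that territory, read 24.9 to 58.2 over the 18 arrays. Lhx6, a LIM homeodomain factor of cortical and striatal interneurons, read 4.26 to 76.7 on 1425094_a_at and 4.90 to 34.4 on 1422262_a_at. On 1425094_a_at the BMP2 24 h arrays read 11.3 and 8.84, against 4.26, 32.7 and 67.0 in the controls of 24 h. The BMP2 arrays lay within the control range, and the 2 lowest controls were replicates 5 and 6. The other untested probe sets were 3 of Pax6, 2 of Meis1 and 2 of Six3, which read 1.28 to 110.2 over the arrays.

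**Figure D1:**
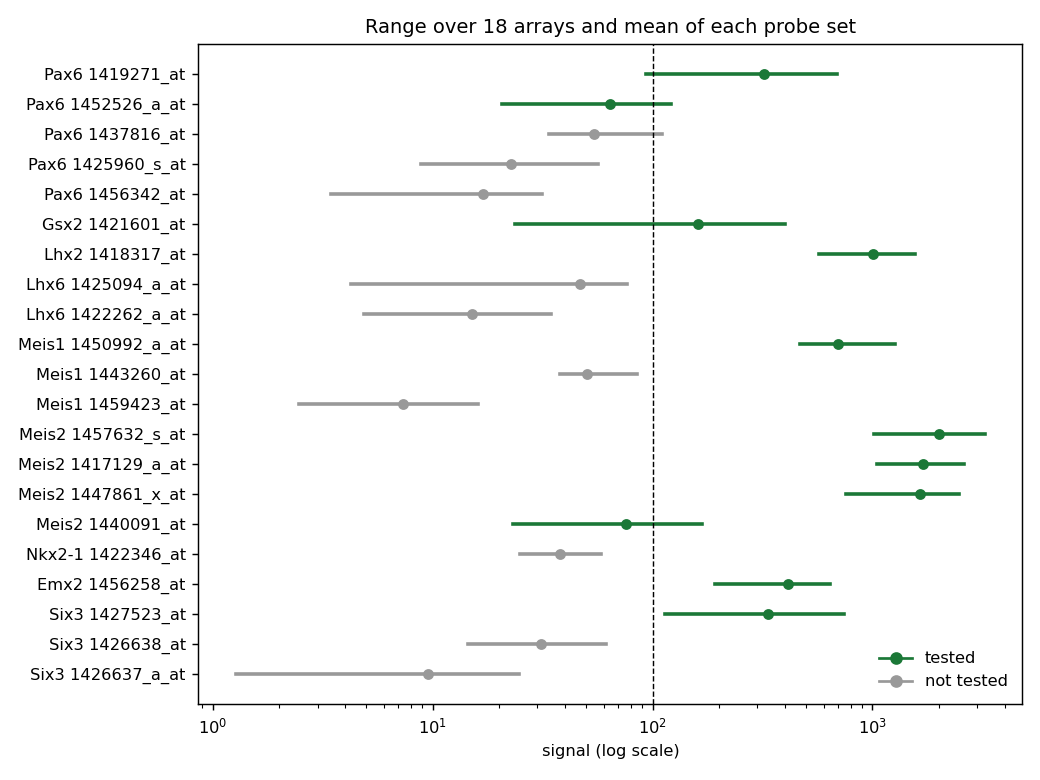
Range over the 18 arrays (line) and mean (point) of the normalized signal of each of the 21 probe sets on a log axis, with the group-mean limit of 100 dashed. Green marks the 11 probe sets tested; both Lhx6 probe sets and the Nkx2-1 probe set stayed below 100 on every array, and signals of different probe sets are not comparable as levels.

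Meis2, Meis1, Pax6 and Six3 accounted for all calls against control. At 24 h, TSA changed 5 of the 11 probe sets (4 rose and 1 fell; limma, Benjamini-Hochberg), against 35.4% of all probe sets tested (16.6% higher and 18.8% lower). BMP2 at 24 h changed 5, all of which rose, against 16.5% of all (8.42% higher). TSA at 6 h changed 3, all of which fell, against 22.5% of all (10.4% lower). BMP2 at 6 h changed none by limma, against 1.47% of all, with 3 of 11 at an unadjusted p under 0.05. Since 4 of the 11 probe sets belong to Meis2, the counts are not of independent genes: by the brightest probe set of each gene, TSA changed 3 of 7 genes at 24 h (38.8% of all genes) and 2 at 6 h (26.4%), and BMP2 changed 3 at 24 h (17.7%). The 2 shares with TSA are near those of all genes. Groups of arrays did not overlap for 4 of 11 probe sets at TSA 24 h (background 20.8%), 8 at BMP2 24 h (29.9%), 10 at TSA 6 h (75.2%) and 7 at BMP2 6 h (44.0%). The 8 include Pax6 1452526_a_at and Meis2 1440091_at, which entered the test only through their BMP2 24 h means (109.9 and 110.3). These probe sets are no support for that count, and both also enter the BMP2 24 h median that follows. The median log2 difference of the 11 was 0.38 at TSA 24 h, -0.52 at TSA 6 h, 0.60 at BMP2 24 h and 0.23 at BMP2 6 h, where the medians of all probe sets tested were -0.02, 0.01, 0.00 and 0.00. By criteria modelled on those of the study (a ratio over 2 and a difference over 100, with an unadjusted limma p under 0.1 in place of the study's confidence level), no member probe set was called at TSA 24 h (background 3.47%), Gsx2 and Pax6 were lower at TSA 6 h (4.14%), Gsx2 was lower and Six3 higher at BMP2 24 h (3.60%), and Gsx2 was lower at BMP2 6 h (0.893%).

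**Figure D2:**
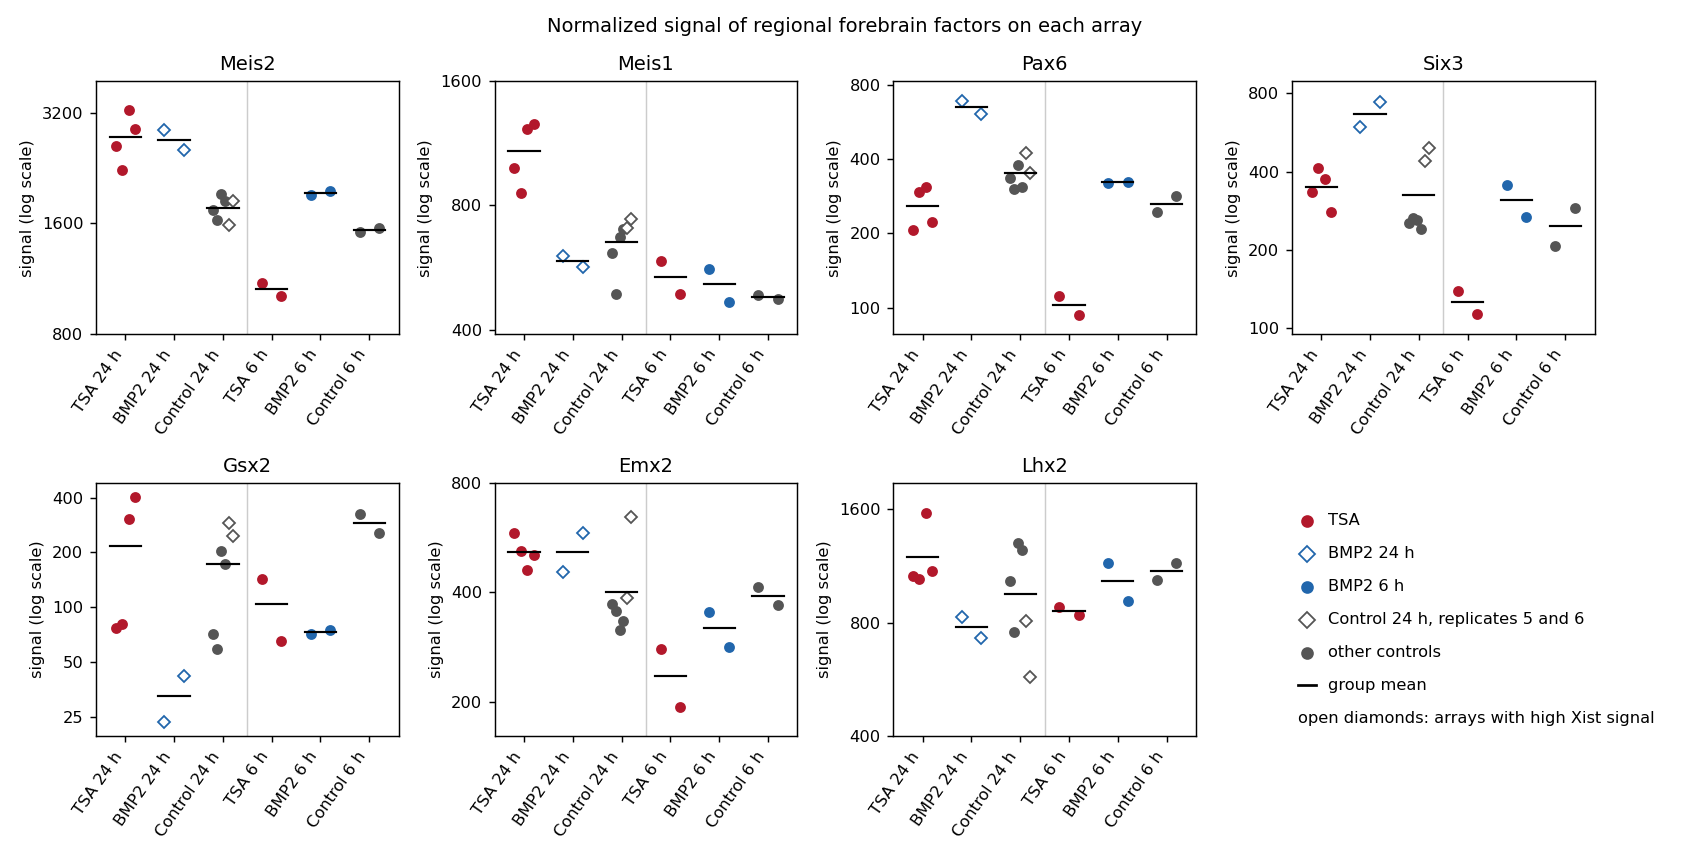
Normalized signal (log axis) of the brightest probe set of each tested gene on every array, with TSA, BMP2 and control groups at 24 h and then at 6 h, and the group mean as a bar. Open diamonds are the 4 arrays with high Xist signal; Meis2 on all TSA and BMP2 arrays of 24 h lies above all 6 controls, while Gsx2 varies over 4-fold among the controls of 24 h.

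Meis2, a TALE homeodomain factor of the striatal primordium and of neuroblasts bound for the olfactory bulb, rose with both treatments at 24 h. Its probe set 1457632_s_at read 2600.3, 2229, 3246 and 2887 on the TSA arrays and 2863 and 2525 on the BMP2 arrays of 24 h, against 1588, 1791 and 1919 (lowest, median and highest) on the 6 controls. All treated arrays lay above all controls. In such mixed cultures, more cells that express a gene and more RNA per cell cannot be told apart. The difference was 0.62 ± 0.09 (SE) for TSA (adjusted p = 0.000105, limma, as are all adjusted p given here) and 0.60 ± 0.12 for BMP2 (adjusted p = 0.00197), which are 1.54-fold and 1.52-fold on that scale.

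The other bright probe sets gave the same directions at 24 h, and the suffixes _s and _x mark probe sets that may also match other transcripts. 1417129_a_at read 2595, 1972, 2358 and 2332 with TSA and 2071 and 2267 with BMP2 at 24 h, against 1050.4, 1254 and 1493 in the controls. 1447861_x_at read 2175, 2017, 2485 and 2149 with TSA and 2449 and 2296 with BMP2, against 757, 1379 and 1714 in the controls, where the lowest value is that of replicate 6. Neither showed an overlap between treated and control arrays. 1417129_a_at rose by 0.86 with TSA (adjusted p = 4.48e-06) and 0.77 with BMP2 (adjusted p = 0.000225), and 1447861_x_at by 0.74 (adjusted p = 0.0021) and 0.85 (adjusted p = 0.00888). The remaining probe set, 1440091_at, was dim (group means 52.3 to 110.3) and passed no test, with 0.41 for TSA at 24 h (adjusted p = 0.249, and 0.59 with adjusted p = 0.00618 when replicate numbers were paired) and 0.69 for BMP2 (adjusted p = 0.174). This probe set entered the test only through its BMP2 24 h mean.

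Against the controls on the same side of the Xist split, the BMP2 differences of the 3 bright probe sets were 0.64, 0.88 and 1.25 (adjusted p = 0.0178, 0.00107 and 0.000882), and the TSA differences 0.60, 0.81 and 0.55 (adjusted p = 0.000466, 1.94e-05 and 0.00041). With only the compared groups in the fit, which kept both BMP2 arrays, the BMP2 call was lost for 1447861_x_at (adjusted p = 0.0648). With 1 BMP2 array in the fit, it was lost for 1457632_s_at without replicate 1 (difference 0.51) and for 1447861_x_at without either array. No single array decided a TSA call of the 3 probe sets at 24 h.

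At 6 h Meis2 fell with TSA on 1 of its 4 probe sets. Probe set 1457632_s_at read 1105 and 1018 with TSA and 1913 and 1961 with BMP2, against 1515 and 1559 in the controls, with no overlap between any of the 3 groups. It fell by 0.52 ± 0.14 with TSA (adjusted p = 0.0158), and the call was lost without either control (adjusted p = 0.0702 and 0.0887) or without TSA replicate 2 (adjusted p = 0.123). The other bright probe sets differed by -0.29 and -0.34 with TSA (adjusted p = 0.162 and 0.373, or 0.0256 and 0.0222 with only the compared groups in the fit). With BMP2 at 6 h the 3 differences were 0.33, 0.41 and 0.33, none of which passed (adjusted p = 0.66, 0.311 and 1).

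The TSA difference of Meis2 was higher at 24 h than at 6 h on all 3 bright probe sets, by the test of that change itself. The 24 h difference minus the 6 h difference was 1.14 ± 0.17 (adjusted p = 0.00165), 1.15 ± 0.17 (adjusted p = 0.00151) and 1.08 ± 0.30 (adjusted p = 0.031). The last of these, of 1447861_x_at, was lost with the deposited values, median scaling, no filter or only the compared groups (adjusted p = 0.0561 to 0.0609), and without any 1 of the 4 control and TSA arrays of 6 h, with adjusted p from 0.0917 to 0.134. For BMP2 the same quantities were 0.28, 0.36 and 0.52 and did not pass (adjusted p = 0.71, 0.636 and 0.687).

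**Figure D3:**
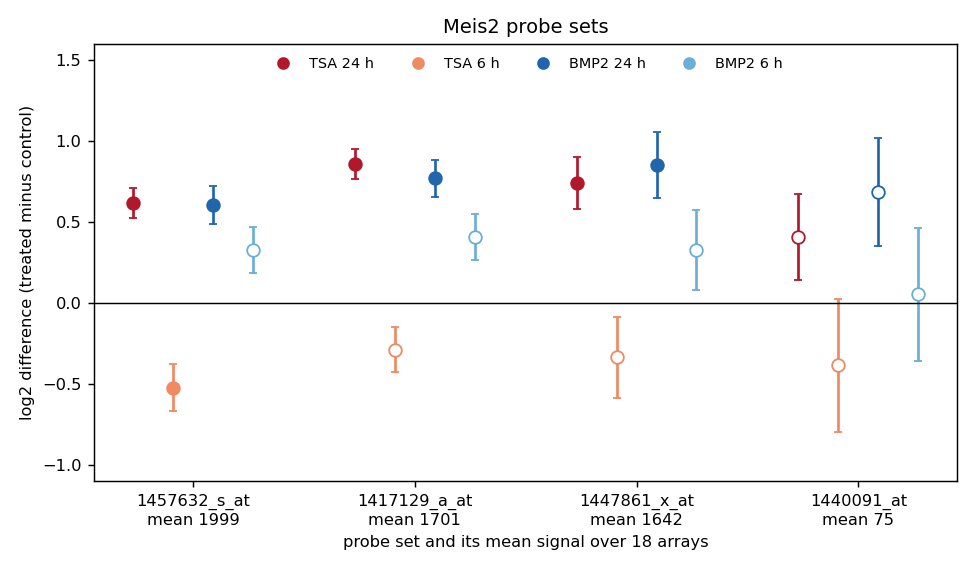
Log2 differences of treated minus control for the 4 Meis2 probe sets, with standard errors; filled points passed the test at an adjusted p under 0.05. In the 3 bright probe sets TSA lies at 0.62 to 0.86 at 24 h and at -0.52 to -0.29 at 6 h, and BMP2 at 0.60 to 0.85 and 0.33 to 0.41.

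Meis1, the paralogous TALE factor, rose with TSA at 24 h and did not pass the test with BMP2. Probe set 1450992_a_at read 984, 856, 1222 and 1262 with TSA and 603 and 569 with BMP2 at 24 h, against 488, 685 and 742 in the controls. Every TSA array lay above every control, whereas the BMP2 arrays lay within the range of all 6 controls. Control replicates 5 and 6, on the BMP2 side of the Xist split, read 706 and 742, above both BMP2 arrays. Over the other settings, array omissions aside, the BMP2 difference ran from -0.29 to 0.12 and passed in none. The TSA difference was 0.69 ± 0.13 (adjusted p = 0.000689; 0.77 against control replicates 1 to 4, adjusted p = 0.00083), and the BMP2 difference -0.14 ± 0.16 (adjusted p = 0.603, 95% interval -0.49 to 0.21). Set directly against BMP2, TSA was higher by 0.83 ± 0.17 (adjusted p = 0.00186), and with a term for the Xist split by 1.06 (adjusted p = 0.00748). At 6 h it read 589 and 488 with TSA and 563 and 468 with BMP2, against 487 and 476 in the controls, with adjusted p of 0.665 for TSA and 1 for BMP2.

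Pax6, the paired-box factor of cortical radial glia and of olfactory bulb neuroblasts, rose with BMP2 and fell with TSA. Probe set 1419271_at read 206, 294, 308 and 222 with TSA and 690.0 and 609.6 with BMP2 at 24 h, against 302, 343 and 425 in the controls. Both BMP2 arrays lay above all controls, while 3 of the 4 TSA arrays lay below all controls and 1 within their range. Pax6 rose by 0.84 ± 0.16 with BMP2 (adjusted p = 0.00142), or 0.70 against control replicates 5 and 6 (adjusted p = 0.0368).

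With TSA at 24 h Pax6 fell by 0.41 ± 0.12 (adjusted p = 0.0171), a call that was lost against control replicates 1 to 4 (-0.34, adjusted p = 0.0518), with only the compared groups in the fit (adjusted p = 0.0515), and without TSA replicate 1 or 4 (adjusted p = 0.0663 and 0.0593). At 6 h the TSA arrays read 112 and 93.7 and the BMP2 arrays 319.8 and 324, against 244 and 283 in the controls. TSA lay lowest without overlap and Pax6 fell by 1.13 ± 0.19 (adjusted p = 0.000712; 1 for BMP2, difference 0.26). The call at TSA 6 h held in all alternatives and with any array left out.

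A dimmer Pax6 probe set, 1452526_a_at, had group means of 22.0 to 109.9 and entered the test only through its BMP2 24 h mean. Its comparisons with BMP2 at 24 h are therefore no independent support for those of 1419271_at. It read 23.3 and 20.7 with TSA at 6 h, against 49.4 and 57.6 in the controls, and fell by 0.66 (adjusted p = 0.0412). No fit with 1 of these 4 arrays left out kept that call (differences of -0.73 to -0.59). This probe set also lost the call in 2 of 8 other settings (adjusted p up to 0.0753). Its differences at 24 h were -0.27 with TSA and 0.47 with BMP2 (adjusted p = 0.157 and 0.086). TSA set against BMP2 gave -1.25 at 24 h and -1.40 at 6 h on 1419271_at (adjusted p = 4.52e-05 and 0.000112), and -0.74 and -0.90 on 1452526_a_at (adjusted p = 0.00725 and 0.00769), the last lost without BMP2 replicate 1 or TSA replicate 2 (adjusted p = 0.0572 and 0.0599). With a term for the Xist split the 24 h values were -1.04 (adjusted p = 0.00601) and -0.61 (adjusted p = 0.152).

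Six3, an anterior forebrain homeodomain factor that is also expressed in striatal projection neuron precursors, had high signals on the BMP2 arrays of 24 h. Probe set 1427523_at read 333, 412, 375 and 279 with TSA and 593 and 741 with BMP2, against 253, 266, 259.6, 241, 439 and 491 in control replicates 1 to 6. Control replicates 5 and 6 were the highest of the controls and lie on the same side of the Xist split as the BMP2 arrays. Against all controls Six3 rose by 1.01 ± 0.24 with BMP2 (adjusted p = 0.00937), but the difference was 0.49 against replicates 5 and 6 alone (adjusted p = 0.207), and the call was also lost without BMP2 replicate 2 (adjusted p = 0.148). With TSA the difference was 0.14 against all controls (adjusted p = 0.615), 0.40 against replicates 1 to 4 (adjusted p = 0.0366) and 0.40 with replicate numbers paired (adjusted p = 0.0233).

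At 6 h Six3 read 139 and 114 with TSA and 354 and 268 with BMP2, against 207 and 289 in the controls. The TSA arrays lay below the rest, with a difference from control of -0.81 ± 0.30 that did not pass (adjusted p = 0.0629, or 0.017 with only the compared groups in the fit). TSA set against BMP2 was lower at 6 h (-1.11, adjusted p = 0.0133) and at 24 h (-0.88, adjusted p = 0.0149), but at 24 h the value was -0.09 (adjusted p = 0.866) with a term for the Xist split. At 6 h, where all arrays lie on one side of that split, the call was lost without BMP2 replicate 1 or TSA replicate 2 (adjusted p = 0.119 and 0.105). The antisense transcript Six3os1 (1431168_at), which has its own probe set, averaged 198 ± 44.3 with TSA and 593 ± 31.6 with BMP2 at 24 h, against 268 ± 46.8 in the controls (SD, n = 4, 2 and 6), and 29.2 ± 8.61, 357 ± 2.71 and 142 ± 16.9 in the same order at 6 h (SD, n = 2 each).

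Gsx2, the homeodomain factor that sets lateral ganglionic eminence identity, read low on all BMP2 arrays. Probe set 1421601_at read 76.8, 81.1, 305 and 402 with TSA replicates 1 to 4 and 23.6 and 41.9 with BMP2 at 24 h, against 71.5, 59.2, 203, 174, 289 and 247 in control replicates 1 to 6. Replicates 1 and 2 were low and replicates 3 and 4 high among both TSA and control arrays, and the BMP2 arrays lay below every other array of 24 h. The BMP2 difference of -1.53 ± 0.54 did not pass against all controls (adjusted p = 0.0623), and was -2.22 against replicates 5 and 6 (adjusted p = 0.0288).

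The Gsx2 difference with TSA at 24 h was 0.15 ± 0.42 (adjusted p = 0.812), and 0.49 with adjusted p = 0.0449 when replicate numbers were paired. At 6 h Gsx2 read 142 and 65.5 with TSA and 71.7 and 75.0 with BMP2, against 327 and 256 in the controls. Both treated groups lay below both controls, at -1.30 ± 0.66 for TSA and -1.61 ± 0.66 for BMP2, and neither passed (adjusted p = 0.177 and 0.554), although both did with only the compared groups in the fit (adjusted p = 0.0179 and 0.0161). TSA against BMP2 passed at 24 h (1.68 ± 0.57, adjusted p = 0.0296). The call was lost without either BMP2 array or without TSA replicate 3 or 4, with values of 1.32 to 1.99 over the 6 fits without 1 array. It was also lost in 2 of 11 other settings (adjusted p up to 0.0676), among them only the compared groups in the fit (adjusted p = 0.0576). Over these 11 settings the difference ran from 0.77 to 2.72. With a term for the Xist split it was 2.72 (adjusted p = 0.0238).

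Emx2, a homeodomain factor of caudal and medial cortex, passed only the test of the TSA difference between times among the 9 comparisons with all groups in the fit. Probe set 1456258_at read 581, 519.5, 459 and 507 with TSA and 454 and 581 with BMP2 at 24 h, against 315, 363 and 643 in the controls, where the highest value, of replicate 6, stood apart. The TSA difference at 24 h was 0.38 ± 0.17 (adjusted p = 0.0898), 0.51 without that control (adjusted p = 0.0041) and 0.54 with replicate numbers paired (adjusted p = 0.000997). The BMP2 difference was 0.37 (adjusted p = 0.236), 0.51 without control replicate 6 (adjusted p = 0.023) and 0.04 against control replicates 5 and 6 (adjusted p = 0.962).

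At 6 h Emx2 read 279 and 193 with TSA and 354 and 283 with BMP2, against 413 and 370.1 in the controls, and neither difference passed (-0.68 and -0.28, adjusted p = 0.0701 and 1; 0.0286 for TSA with only the compared groups in the fit). The 24 h minus the 6 h TSA difference was 1.05 ± 0.31 (adjusted p = 0.0404). It was lost with median scaling, no filter or only the compared groups (adjusted p = 0.0616 to 0.0765), and in 12 of the 14 fits that left out 1 array, with adjusted p up to 0.228 without TSA 6 h replicate 2, and kept without control replicate 6 or TSA replicate 3 of 24 h.

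Lhx2, a LIM homeodomain selector of cortical fate that is also expressed in progenitors of the ventral telencephalon, passed the test in none of the 9 comparisons with all groups in the fit. Probe set 1418317_at read 1065, 1045, 1568 and 1094 with TSA and 829.9 and 727 with BMP2 at 24 h, against 574, 920.4 and 1305 in the controls. The control range covered nearly all treated values, and TSA replicate 3 alone lay above it. Differences were 0.35 for TSA (95% interval -0.06 to 0.76, adjusted p = 0.175) and -0.23 for BMP2 (95% interval -0.75 to 0.29, adjusted p = 0.556), and the BMP2 difference was 0.18 against control replicates 5 and 6. At 6 h Lhx2 read 881 and 838 with TSA and 1149 and 916 with BMP2, against 1037 and 1151 in the controls (adjusted p = 0.472 and 1; 0.0318 for TSA with only the compared groups in the fit).

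**Figure D4:**
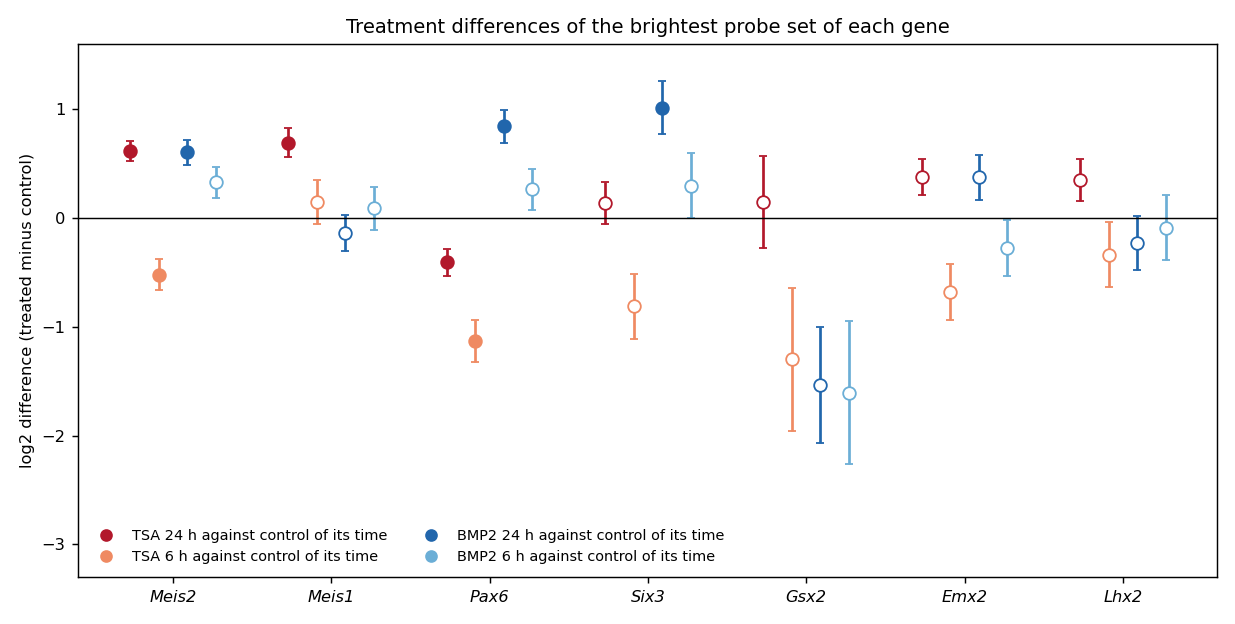
Log2 differences of treated minus control for the brightest probe set of each tested gene, with standard errors; filled points passed the test at an adjusted p under 0.05. TSA and BMP2 lie on the same side of 0 for Meis2 at 24 h (0.62 and 0.60) and on opposite sides for Pax6 (-0.41 and 0.84).

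Over the 11 probe sets, TSA set against BMP2 gave 2 higher and 3 lower at 24 h (background 38.0%, 18.5% higher and 19.5% lower) and 5 lower at 6 h (background 24.3%, 11.5% lower). At 6 h these were both tested Pax6 probe sets, Six3, and Meis2 on 1457632_s_at (-0.85, adjusted p = 0.000558) and 1417129_a_at (-0.70, adjusted p = 0.00213). Of the 3 lower at 24 h, Pax6 1452526_a_at entered the test only through its BMP2 24 h mean. At 24 h the 3 bright Meis2 probe sets passed no test between the treatments, with 95% intervals of -0.25 to 0.28, -0.17 to 0.35 and -0.56 to 0.35. With a term for the Xist split the differences were -0.04, -0.08 and -0.70 (adjusted p = 0.916, 0.822 and 0.0502), the last of which lies outside its interval. The comparisons with control share their control arrays, so a like value in both treatments is not independent. The TSA difference was higher at 24 h than at 6 h for 4 probe sets (3 of Meis2, and Emx2; background 9.85%, 4.32% higher). By limma, no probe set passed for the BMP2 difference between times (background 0.628%; 1 at an unadjusted p under 0.05) or between control cultures of 24 h and 6 h (background 4.39%; 3 at an unadjusted p under 0.05).

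Other forebrain patterning genes were counted from 3 lists, by the brightest probe set of each gene. Of 23 listed ventral and ganglionic eminence factors, 13 were tested. With TSA, 6 fell and none rose at 6 h, and 3 rose and 3 fell at 24 h, against backgrounds of 26.4% and 38.8% of all genes called in either direction; the list's median differences were -0.77 and -0.11. Dlx1, a homeodomain factor of GABAergic differentiation, averaged 193 ± 122 with TSA at 24 h, against 593 ± 277 in the controls (SD, n = 4 and 6), and fell by 1.46 on the log2 scale (adjusted p = 0.00581) and by 2.54 at 6 h (adjusted p = 0.0048). Gsx1, the paralog of Gsx2, fell with TSA at 6 h (-1.87, adjusted p = 0.00585). The 3 that rose with TSA at 24 h were Foxp1, Foxp2 and Ebf1 (0.40, 0.79 and 0.78, adjusted p = 0.00501, 0.00497 and 0.00875). Foxp2 and Ebf1 entered the test through treated groups alone. Besides Dlx1, Sox6 and Bcl11b fell at 24 h (-1.04 and -1.06, adjusted p = 0.000361 and 0.0113).

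With BMP2 at 24 h, 4 of these 13 genes rose and 2 fell (background 17.7%, list median 0.59), and none passed at 6 h (background 1.80%). Gsx1 averaged 28.7 ± 0.225 with BMP2, against 166 ± 44.5 in the controls (SD, n = 2 and 6), and fell by 1.67 (adjusted p = 0.00387). Olig2, the bHLH factor of oligodendrocyte precursors, fell by 1.08 (adjusted p = 1.91e-05). Nr2f2, a nuclear receptor of the caudal ganglionic eminence, averaged 619 ± 15.7 with BMP2, against 148 ± 114 in the controls (SD, n = 2 and 6), and rose by 2.08 (adjusted p = 0.00196). Ebf1, a factor of striatal neuron differentiation, rose by 1.23 (adjusted p = 0.00425). It entered the test only through its BMP2 means (103 at 6 h and 114 at 24 h, against 31.9 and 32.7 in the controls). Satb1 and Foxp2 also rose (0.65 and 0.95, adjusted p = 0.00743 and 0.0145). Ebf1 and Foxp2 thus rose with both treatments at 24 h, against the same control arrays. Foxp2 entered the test only through BMP2 at both times and TSA at 24 h (control means 69.1 and 71.0). Since treated groups alone brought both genes into the test, their calls are no independent support for a response shared by the treatments.

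Of 17 pallial and dorsal factors, 6 were tested, and the cortical Emx1, Tbr1, Eomes and Neurod6 were not among them. Over all genes, 38.8% were called at TSA 24 h, 26.4% at TSA 6 h, 17.7% at BMP2 24 h and 1.80% at BMP2 6 h. BMP2 at 24 h raised 3 (Otx1, Bcl11a and Zic1, by 1.81, 1.72 and 1.65, adjusted p = 0.000297, 0.000769 and 0.0124) and TSA at 24 h raised Otx1 alone (0.73, adjusted p = 0.0165). Of 19 homeodomain cofactors, 14 were tested. BMP2 at 24 h raised 6 and lowered 2, among them Ldb2, which bridges LIM homeodomain proteins such as Lhx2, at 774 ± 31.4 with BMP2, against 68.8 ± 39.6 in the controls (SD, n = 2 and 6; 3.10, adjusted p = 1.29e-05). Ldb2 entered the test only through its 24 h means with BMP2 and TSA (774 and 129). TSA at 24 h raised 3 and lowered 2, where those that fell were Pbx2, a TALE partner of Meis proteins (-0.52, adjusted p = 0.00696), and Tle4, a corepressor of the Groucho family (-1.01, adjusted p = 0.000167). TSA at 6 h raised none and lowered 3, and BMP2 at 6 h raised 1 (Tle3) and lowered none. As shares of the 14 cofactors, 35.7% were called at TSA 24 h and 21.4% at TSA 6 h, both below the share of all genes, and 57.1% at BMP2 24 h. These genes were not tested against the Xist split.

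Markers of the cell types in the cultures moved with the treatments, and their part in the values above was not tested. The summed signal of 7 oligodendrocyte lineage markers was 14131 to 20440 with TSA and 11133 to 11788 with BMP2 at 24 h, against 25005 to 31043 in the controls, and 21027 to 21092 with TSA and 22614 to 24690 with BMP2 at 6 h, against 30294 to 31925 in the controls. Of these 7, 4 fell with TSA and 5 with BMP2 at 24 h, and 4 and 1 at 6 h, where 38.8%, 17.7%, 26.4% and 1.80% of all genes were called. The 7 neuronal markers summed to 3355 to 4035 with TSA and 5654 to 6725 with BMP2 at 24 h, against 4654 to 6616 in the controls, where 2 rose and 3 fell with TSA and 2 rose with BMP2. At 6 h they summed to 3678 to 4691 with TSA and 5076 to 6016 with BMP2, against 6385 to 7856 in the controls. Of the 7, 3 fell with TSA at 6 h and 0 with BMP2. The 3 ganglionic eminence markers summed to 561 to 1678 with TSA and 1224 to 1615 with BMP2 at 24 h, against 608 to 2388 in the controls, and 1 of 3 fell with each. At 6 h these markers summed to 506 to 1051 with TSA, against 2337 to 3074 in the controls, and 2 of 3 fell. The 5 progenitor markers summed to 24696 to 26917 with TSA and 24461 to 24650 with BMP2 at 24 h, against 22348 to 24525 in the controls, and 2 rose with TSA. The 6 astrocyte markers summed to 13031 to 19286 with TSA and 10247 to 11392 with BMP2 at 24 h, against 11271 to 18003 in the controls. Of the 5 tested, 1 fell with TSA and 2 with BMP2. At 6 h with TSA the astrocyte markers summed to 9496 to 10970, against 12636 to 13693 in the controls. The progenitor markers then summed to 20541 to 21553, against 22303 to 22553, and 1 of 5 tested fell in each list. Of 4 endothelial markers 1 was tested, which rose with both treatments at 24 h, and the 4 summed to 149 to 214 with TSA and 308 to 346 with BMP2, against 112 to 152 in the controls. The 5 mural and fibroblast markers summed to 415 to 572 with TSA and 146 to 204 with BMP2 at 24 h, against 221 to 600 in the controls. Of the 2 tested, 1 rose with TSA and 1 fell with BMP2 at 24 h.

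As a description over the 18 arrays, which share treatments, the genes most like each factor were named by Pearson's r of log2 signals. For Meis2 these were BC004004, Gadd45g and Plce1 (r = 0.94, 0.94 and 0.91). For Meis1 they were Nol3, Gstm4 and Trim12c (0.95, 0.94 and 0.94). For Pax6 they were Tox, Cnpy4 and Arid2 (0.93 each), for Six3 Mta3, Saysd1 and Sri (0.93, 0.93 and 0.92), for Emx2 Lrig1, Zfp511 and Kctd12b (0.90, 0.90 and 0.89), for Gsx2 Slit1, Chic2 and 1110032F04Rik (0.80, 0.80 and 0.79) and for Lhx2 Pdzd11, Mynn and Mdk (0.86, 0.85 and 0.84). None of these genes recurred after group means were subtracted except Mynn for Lhx2 (0.93). Among the factors themselves, Pax6 and Six3 were most alike across arrays (r = 0.86, and 0.53 after subtracting group means), and Meis1 and Gsx2 within groups (0.86, against 0.40 across arrays).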

How the data were processed

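Total RNA of differentiating neurosphere cultures was labelled and hybridized to 18 arrays. The intensity values deposited by the authors are linear. The submitters' processing notes credit them to MAS5, with no version, while the methods of the study name dChip with quantile normalization. Both can shape low signals, and the quantile step removes global shifts. All further steps used R 4.3.3 with limma 3.58.1. Signals were quantile-normalized, 32 was added and the log2 taken. The 64 array control probe sets were not tested. The 19439 probe sets whose brightest group averaged 100 or more were fitted in 1 model of the 6 groups (eBayes with trend), with Benjamini-Hochberg adjustment within each of 9 comparisons and a threshold of 0.05. The number of arrays limits the precision.

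Probe sets were named from the platform annotation, in which 34958 probe sets have 1 gene, 932 several and 9211 none. Every probe set paired with 1 member symbol was accounted for, a gene was represented by its brightest probe set (10574 genes tested), and the 3 most similar tested genes were named by Pearson's r. Members, lists and alternatives were chosen with earlier results of these data known. Groups and replicate numbers came from the sample titles. Same-numbered TSA and control arrays of 24 h deviated together from their group means (r = 0.41, 0.57, 0.44 and 0.28 for replicates 1 to 4), so the numbers were taken to pair them, and blocked values stand beside the TSA results of 24 h whose call they change. TSA replicate 4 was, however, more like a control of another number. The main fit and its counts hold no pairing term. At 6 h each treatment has only 2 same-numbered pairs (r = 0.57 for TSA and 0.71 for BMP2), fewer than the 3 set as the minimum for pairing, and BMP2 and control arrays of 24 h gave 0.00 and -0.13.

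No 2 arrays of a group shared over 0.64% of their values, and their correlations were 0.91 to 0.99. The Xist split is not in the labels. Alternatives covered normalization, pseudocount, filter, variance trend, groups fitted, replicate block, Xist split, criteria modelled on those of the study and each array left out. Promoter motifs were counted in RefSeq sequences (GRCm38.p6).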

Additional observations from a re-analysis of the deposited data

Results flagged for a closer look

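In 2 of 22 groups of 4 or 6 arrays examined, 1 array stood apart from the others by Dixon's limit, and chance alone flags about 1 group in 20. Lhx2 read 1568 on TSA 24 h replicate 3, where the nearest other TSA array read 1094 and the lowest 1045, a gap of 0.906 of the group's range. Emx2 read 643 on Control 24 h replicate 6, where the nearest other control read 386 and the lowest 315, a gap of 0.783 of the range.

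For 4 probe sets the TSA difference was larger at 24 h than at 6 h by the test of that difference itself (limma, Benjamini-Hochberg). Of these, 3 belong to Meis2: 1457632_s_at by 1.14, 1417129_a_at by 1.15 and 1447861_x_at by 1.08 on the log2 scale (adjusted p = 0.00165, 0.00151 and 0.031). Emx2 (1456258_at) differed by 1.05 (adjusted p = 0.0404). In these probe sets the 2 TSA arrays of 6 h lay below both controls of 6 h, and the TSA arrays of 24 h above 5 or all 6 controls of 24 h.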

How the results depend on the processing

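Of the 27 member values that passed the test in the 9 comparisons, 9 lost the call in at least 1 other setting and 12 in at least 1 fit without 1 array. No value that passed in either fit changed its direction. Counts of called member probe sets moved as follows, out of 11 except where the filter left fewer or more. The counts over all probe sets, given below, moved with the settings too. With only the compared groups in the fit, the count was 1 at BMP2 6 h, 8 at TSA 6 h and 2 for the TSA difference between times. The filter then used only those groups, so Pax6 1452526_a_at and Meis2 1440091_at were not tested there. The TSA difference between times also gave 2 calls with median scaling and 2 of 21 with no filter on low signals. With a term for the Xist split, TSA against BMP2 at 24 h gave 3. By the criteria modelled on those of the study (ratio over 2, difference over 100, unadjusted p under 0.1, with 0.893% to 4.14% of all probe sets called), 1 member probe set was called at BMP2 6 h (Gsx2, lower), 2 at BMP2 24 h (Gsx2, lower, and Six3, higher), and 0 at TSA 24 h. Without 1 array, the counts were 0 to 0 at BMP2 6 h, 3 to 6 at BMP2 24 h, 1 to 2 at TSA 6 h, 4 to 6 at TSA 24 h, 3 to 5 and 2 to 5 for TSA against BMP2 at 6 h and 24 h, 2 to 5 for the TSA and 0 to 0 for the BMP2 difference between times, and 0 to 0 for the controls. The TSA 6 h count fell to 1 without either control or TSA replicate 2, the BMP2 24 h count to 3 without either BMP2 array, and the TSA difference between times to 2 without any control or TSA array of 6 h. TSA against BMP2 fell to 3 at 6 h without BMP2 replicate 1 or TSA replicate 2, and to 2 at 24 h without BMP2 replicate 2. Where fewer arrays or fewer groups were fitted, fewer residual degrees of freedom were left by construction, and the cause of the other changes was not tested.

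With the replicate number as a block within each time, a replicate block in pairs, the counts were 1 at BMP2 6 h, 8 at BMP2 24 h, 7 at TSA 6 h, 9 at TSA 24 h, 6 and 9 for the BMP2 and TSA differences between times, and 1 for the controls. Calls over all probe sets also rose in some settings, to at most 9084 at BMP2 24 h, 8840 at TSA 6 h and 9735 at TSA 24 h. The blocked counts are therefore not read as particular to these factors. At 24 h, same-numbered BMP2 and control arrays did not deviate together, so the BMP2 24 h count has no basis in pairing. With the block also split by Xist, an alternative chosen after seeing the data, they were 2 at BMP2 6 h, 8 at TSA 6 h, 9 at TSA 24 h, 3 and 9 for the BMP2 and TSA differences between times, and 1 for the controls, and the BMP2 24 h difference of Meis2 1447861_x_at was 0.52. At TSA 24 h the block added Gsx2, Emx2, Six3 and 1 Meis2 probe set. At 6 h, where same-numbered arrays also deviated together but form only 2 pairs, it added Gsx2, Emx2, Six3 and Meis2 1447861_x_at with TSA (adjusted p = 0.00268, 0.00262, 0.00459 and 0.0181) and Gsx2 with BMP2 (adjusted p = 0.00592).

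Median scaling in place of quantile normalization moved the median difference of all probe sets tested to -0.10 at TSA 24 h, -0.12 for the TSA difference between times and 0.11 for the controls. The share of calls that were higher was then 32.7%, 26.3% and 63.7%, against 47.0%, 43.9% and 34.9%. Over all probe sets tested, the count of calls and its range over the settings, array omissions aside, was 6878 (4908 to 9735) at TSA 24 h, 4378 (3595 to 8840) at TSA 6 h, 3214 (1766 to 9084) at BMP2 24 h, 286 (247 to 959) at BMP2 6 h, 7396 (2506 to 10688) and 4724 (4102 to 8996) for TSA against BMP2 at 24 h and 6 h, 1915 (1261 to 6034) and 122 (75 to 4037) for the TSA and BMP2 differences between times, and 854 (7 to 3525) for the controls. Dim signal limits Lhx6, Nkx2-1 and the second probe sets of Pax6, Meis1 and Six3, and groups of 2 arrays limit every 6 h value.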

Other observations

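The antisense transcripts of other members were dim. Emx2os (1456559_at) averaged 87.2 ± 21.2 with TSA and 90.3 ± 6.83 with BMP2 at 24 h, against 77.1 ± 23.2 in the controls (SD, n = 4, 2 and 6). Pax6os1 (1440445_at) read at most 33.5 on any array.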
